A study of Homo sapiens with 16 samples.

Results

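The comparison concerned cells transfected with siGGGGGC, an siRNA named siMxy_3AB in the titles of the libraries, at 48 h against 24 h after transfection. It comprised 4 of the 16 RNA-seq libraries of the series, chosen by their labels alone: 1 library of PC3 cells and 1 of HeyA8 cells at each time. PC3 is a prostate and HeyA8 an ovarian cancer cell line, both with a genotype given as wild type. Cells received 1 nM siRNA with a lipid reagent according to the labels, while the study's methods give a higher dose. The groups used beside them were mock-treated cells, cells given siNT1, a non-targeting siRNA, and cells given siCAG, another siRNA, each again with 1 library per line and time. According to the study's methods the medium was renewed a day after transfection in the wells kept longer, so that time and fresh medium cannot be told apart in any group. Total RNA was sequenced after removal of ribosomal RNA. The siGGGGGC libraries held 29382549 counts at 24 h and 27937092 at 48 h in PC3, and 31255897 and 30570998 in HeyA8. The labels do not say that the libraries came from separate cultures beyond their line and time. The p-values of a time effect measure it against how far the lines disagree in their change over time. That disagreement is pooled over the treatments fitted, control cells included, and is not the spread of replicate cultures.

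Small interfering RNAs and miRNAs guide Argonaute proteins to mRNAs that pair with the seed, the bases near the 5′ end of the guide strand. Pairing through the seed alone, mostly in 3′ UTRs, lowers the mRNA partly by shortening its poly(A) tail and decapping it. Guides with G-rich seeds are known to kill cancer cells by lowering many mRNAs that cells need to survive. siGGGGGC is named for its seed, GGGGGC at positions 2 to 7, whose match in an mRNA is GCCCCC. The RefSeq table (GRCh38.p14) held 2 human miRNAs with the same 6 bases at those positions, shown because they share the seed match, with bases 2 to 8 in capitals.
hsa-miR-4488: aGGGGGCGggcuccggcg
hsa-miR-1237-5p: cGGGGGCGgggccgaagcgcg

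Of the mRNAs that the study named as targets of siGGGGGC, 5 are shown with 1 match each from the 3′ UTR (GENCODE v44, hg38, sense strand of the gene), because their levels are followed below. Capitals mark GCCCCC.
EIF5A (chr17:7311851-7311880, + strand): gaacctgcagagGCCCCCtccccgagcctg
ARHGDIA (chr17:81868576-81868605, - strand): tgccctttctgtGCCCCCcaggttctatct
PPP1R14B (chr11:64244691-64244720, - strand): aggacaatcgctGCCCCCcaacctcgtagc
APEX1 (chr14:20457532-20457561, + strand): cctgggaaataaGCCCCCtcaactaccatt
TGM2 (chr20:38130174-38130203, - strand): agcctgctgagaGCCCCCaccttgatccca
The 3′ UTRs of these genes held 5, 3, 2, 1 and 4 matches in this order.

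The lines were first checked against cell type markers. The 7 epithelial markers, keratins and junction proteins, summed to 59050 normalized counts at 24 h and 26470 at 48 h in PC3, and to 45820 and 23710 in HeyA8 (normalized counts are counts scaled by the TMM method to a mean library of the 12 libraries fitted together). KRT7 was the most abundant of them in PC3 and KRT8 in HeyA8, whereas CDH1 and CLDN4 were at 0 to 2.17 normalized counts in HeyA8. Of the 6 prostate luminal markers, KLK3 and KLK2 were at 0 in all 4 libraries, and HOXB13 held most of the sum of 3434 and 2948 in PC3. PAX8, an ovarian epithelial marker, gave 2569.5 and 1992 in HeyA8 and 77.7 and 42.1 in PC3.

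Markers of other cell types were low. The 6 leukocyte markers summed to 11.2 and 61.2 normalized counts in PC3 and 9.55 and 30.4 in HeyA8, with CD3E at 0 throughout. CD14, a co-receptor for lipopolysaccharide, was the most abundant of them and was called higher at 48 h (log2 fold change 2.82 ± 0.71 (SE), edgeR BH-adjusted p = 0.0368). The 6 fibroblast markers summed to 1056 and 817 in PC3 and 322 and 137 in HeyA8, mostly from COL1A1, with DCN at 0. The 4 endothelial markers summed to 277 and 201 in PC3, mostly KDR, and to 213 and 301 in HeyA8, mostly CDH5.

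Between 24 and 48 h, many glycolysis and hypoxia genes such as BNIP3 and SLC2A1 rose in siGGGGGC cells of both lines. Many genes of DNA replication and ribosome biogenesis and snoRNA hosts fell, as did most of the target genes named by the study and several keratins. In a fit to the 12 mock, siNT1 and siGGGGGC libraries with cell line as block, 607 of 15647 genes tested were higher at 48 h (3.88%) and 1073 were lower (6.86%) by edgeR's quasi-likelihood test at a Benjamini-Hochberg (BH) adjusted p under 0.05. The median log2 fold change over all genes tested was -0.0054. By the same fit, the 8 control libraries (mock and siNT1) gave 9 genes higher (0.0575%) and 8 lower (0.0511%).

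Of the 1680 genes called, 1646 moved the same way in both lines, beside 9932 of all 15647 (63.5%), which follows largely from the call on a time effect shared by the lines, while 27 had no counts in 1 of the lines and 7 moved in opposite directions. Without any test, 245 genes were at least 2-fold higher in both lines (1.57%) and 219 at least 2-fold lower (1.40%). Genes with few counts are among those counted, and the same count was not made for the control pairs. Across the 15647 genes, the log2 changes of the lines correlated with Pearson's r = 0.353 in siGGGGGC cells, 0.117 in siNT1 cells and 0.0832 in mock cells, where genes are not independent replicates. The SD of the changes over genes was 0.668 in PC3 and 0.669 in HeyA8 with siGGGGGC, against 0.416 and 0.461 in mock and 0.479 in both lines with siNT1. The count rested on the fit: 89 genes higher and 199 lower were called from the 4 siGGGGGC libraries alone, 320 and 632 without the PC3 pair, 325 and 972 without the HeyA8 pair, 1249 and 1445 by DESeq2, and 0 by edgeR with all 16 libraries, where 1987 genes had an unadjusted p under 0.05. Levels are relative to all RNA of a library, and fewer cells of a kind and less RNA per cell cannot be told apart.

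**Figure D1:**
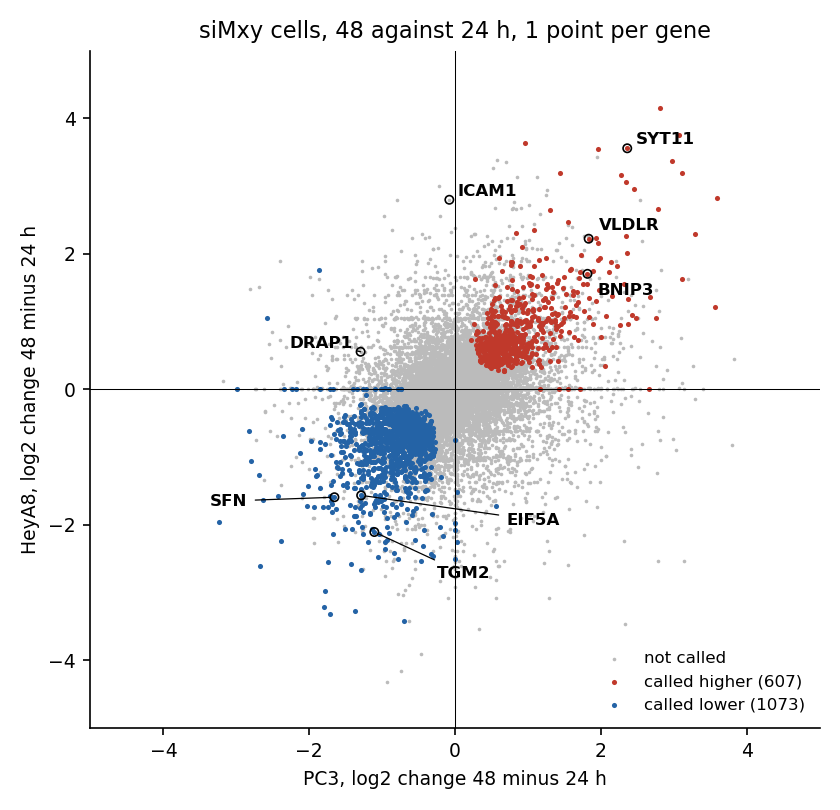
Log2 change from 24 to 48 h in siMxy (siGGGGGC) cells of PC3 (x axis) and HeyA8 (y axis), 1 point per gene tested, with the 607 genes called higher in red, the 1073 called lower in blue and the others in grey. Called genes lie mostly in the upper right and lower left, while ICAM1 and DRAP1 lie away from the diagonal.

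Shared rises and falls were ranked by the smaller of the 2 lines' log2 changes. The first 12 genes that rose were led by SYT11, a synaptotagmin of vesicle traffic, at 314 normalized counts at 24 h and 1619 at 48 h in PC3, and 37.1 and 459.5 in HeyA8 (hg38, chr1:155859469-155885199, + strand, log2 fold change 2.89 ± 0.30 (SE), edgeR BH-adjusted p = 0.00293). Both 48 h libraries lay above both 24 h libraries. VLDLR, a lipoprotein receptor, had 168 normalized counts at 24 h and 602 at 48 h in PC3, and 316 and 1485 in HeyA8 (2.04 ± 0.20 (SE), edgeR BH-adjusted p = 0.00293). In VLDLR, too, both 48 h values exceeded both 24 h values. BNIP3, a receptor for the removal of mitochondria, rose from 4124 to 14514 normalized counts in PC3 and from 3019.5 to 9849.6 in HeyA8 (1.76 ± 0.22 (SE), edgeR BH-adjusted p = 0.00428).

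MED12L, a relative of a Mediator subunit, rose from 26.2 to 110.0 normalized counts in PC3 and from 166 to 644 in HeyA8. NR6A1, an orphan nuclear receptor, rose by 1.59 on the log2 scale. NNAT, the imprinted neuronatin, rose by 1.74, FGF11, an intracellular member of the FGF family, by 1.77, and KDM7A, a histone demethylase, by 1.58. The H2B histone genes HIST1H2BJ and HIST1H2BC rose by 1.86 and 1.57, and LOC729603 by 2.06. NME1-NME2, a readthrough of the nucleoside diphosphate kinase genes NME1 and NME2, was called higher by 2.10, but its reads overlap those of both genes and its counts are uncertain. The adjusted p of these 12 genes lay between 0.00293 and 0.0278 (edgeR, BH). The rule that chose these genes asked for a call, the same direction in both lines and a mean over 100 normalized counts, and ranked them by the smaller change.

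Among the 12 falls that led by the same ranking, PODXL, a sialomucin of the cell surface, had 20844 normalized counts at 24 h and 6722 at 48 h in PC3, and 38536 and 11334 in HeyA8 (log2 fold change -1.70 ± 0.19 (SE), edgeR BH-adjusted p = 0.00309). The later library was the lower one in each line, as the rule of choice required. The HeyA8 library at 48 h was still above the PC3 library at 48 h. FSTL3, a secreted inhibitor of activin, fell from 1848 to 567 normalized counts in PC3 and from 1206 to 382 in HeyA8 (-1.68 ± 0.14 (SE), edgeR BH-adjusted p = 0.00293). SFN, the 14-3-3 sigma protein, fell from 2322 to 736 normalized counts in PC3 and from 603 to 198 in HeyA8 (-1.63 ± 0.18 (SE), edgeR BH-adjusted p = 0.00309), whereas control cells gave 0.28 in the same interval. SFN was lower at 48 h in each line, as the rule of choice required, and HeyA8 at 24 h was below PC3 at 48 h.

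The others were FERMT1, an integrin adaptor (-1.77), CLMP, an adhesion molecule (-1.65), CLDN14, a tight junction protein (-1.90), LRP3, a receptor of the LDL receptor family (-1.86), and CPA4, a carboxypeptidase (-1.75). PDCD1LG2, the PD-1 ligand PD-L2, fell by 1.79 on the log2 scale, where control cells gave -0.98. TMEM117, a membrane protein, gave -1.61 and MYPN, a sarcomere protein, -1.78. TRIM55, a ubiquitin ligase of muscle, was 1452 and 247 in HeyA8 but 4.68 and 0 in PC3, so that its fall rests on HeyA8. The adjusted p of these 12 lay between 0.00293 and 0.0156 (edgeR, BH).

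Most of the target genes named by the study went on falling after 24 h. Of 18 such genes tested, 14 were lower at 48 h than at 24 h, 0 were higher, and the median log2 fold change was -0.96 against 0.086 in control cells. The study chose this list partly on these samples, so its direction is not independent evidence. EIF5A, a translation factor, had 6775 normalized counts at 24 h and 2773 at 48 h in PC3, and 15324 and 5173 in HeyA8 (log2 fold change -1.43 ± 0.11 (SE), edgeR BH-adjusted p = 0.00293). Its control libraries lay between 12919 and 14630 in PC3 and between 34148 and 40122 in HeyA8, above both siGGGGGC libraries of each line.

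TGM2, a transglutaminase, fell from 4959.8 to 2301 normalized counts in PC3 and from 21790 to 5054 in HeyA8 (-1.61 ± 0.23 (SE), edgeR BH-adjusted p = 0.00538). ARHGDIA, which keeps small GTPases in their inactive form, fell from 2254 to 1017 normalized counts in PC3 and from 3590.5 to 1711 in HeyA8 (-1.11 ± 0.11 (SE), edgeR BH-adjusted p = 0.00293). Both genes were lower at 48 h in each line, and control cells gave -0.17 and 0.018. PPP1R14B, an inhibitor of protein phosphatase 1, gave -1.07 ± 0.12 (SE), edgeR BH-adjusted p = 0.00308, and APEX1, an endonuclease of base excision repair, -0.93 ± 0.12 (SE), edgeR BH-adjusted p = 0.00432. IMPDH1, of guanine nucleotide synthesis, fell by 1.16, RHOC, a small GTPase, by 0.83, and the RNA polymerase subunits POLR2E and POLR2K by 0.93 and 0.76 on the log2 scale. CENPB, which binds centromeric DNA, fell by 1.07, EPN1, an endocytic adaptor, by 1.12, HMGA1, a chromatin protein, by 1.00, CPTP, a lipid transfer protein, by 1.03 and PES1, of ribosome biogenesis, by 0.63.

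The 4 genes of this list that missed the threshold were AGPAT1, of phospholipid synthesis (-0.45 ± 0.14 (SE), edgeR BH-adjusted p = 0.0725), FAM189B (-0.42 ± 0.16 (SE), edgeR BH-adjusted p = 0.116), ITGA5, an integrin subunit (-0.27 ± 0.12 (SE), edgeR BH-adjusted p = 0.169) and BTBD2 (0.12 ± 0.21 (SE), edgeR BH-adjusted p = 0.755). The median difference of the list from the mean of mock and siNT1 of the same line and time was -1.46 at 24 h and -2.45 at 48 h in PC3 and -1.34 and -2.27 in HeyA8. A gap to the controls was thus already present at 24 h in both lines and was wider at 48 h.

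**Figure D2:**
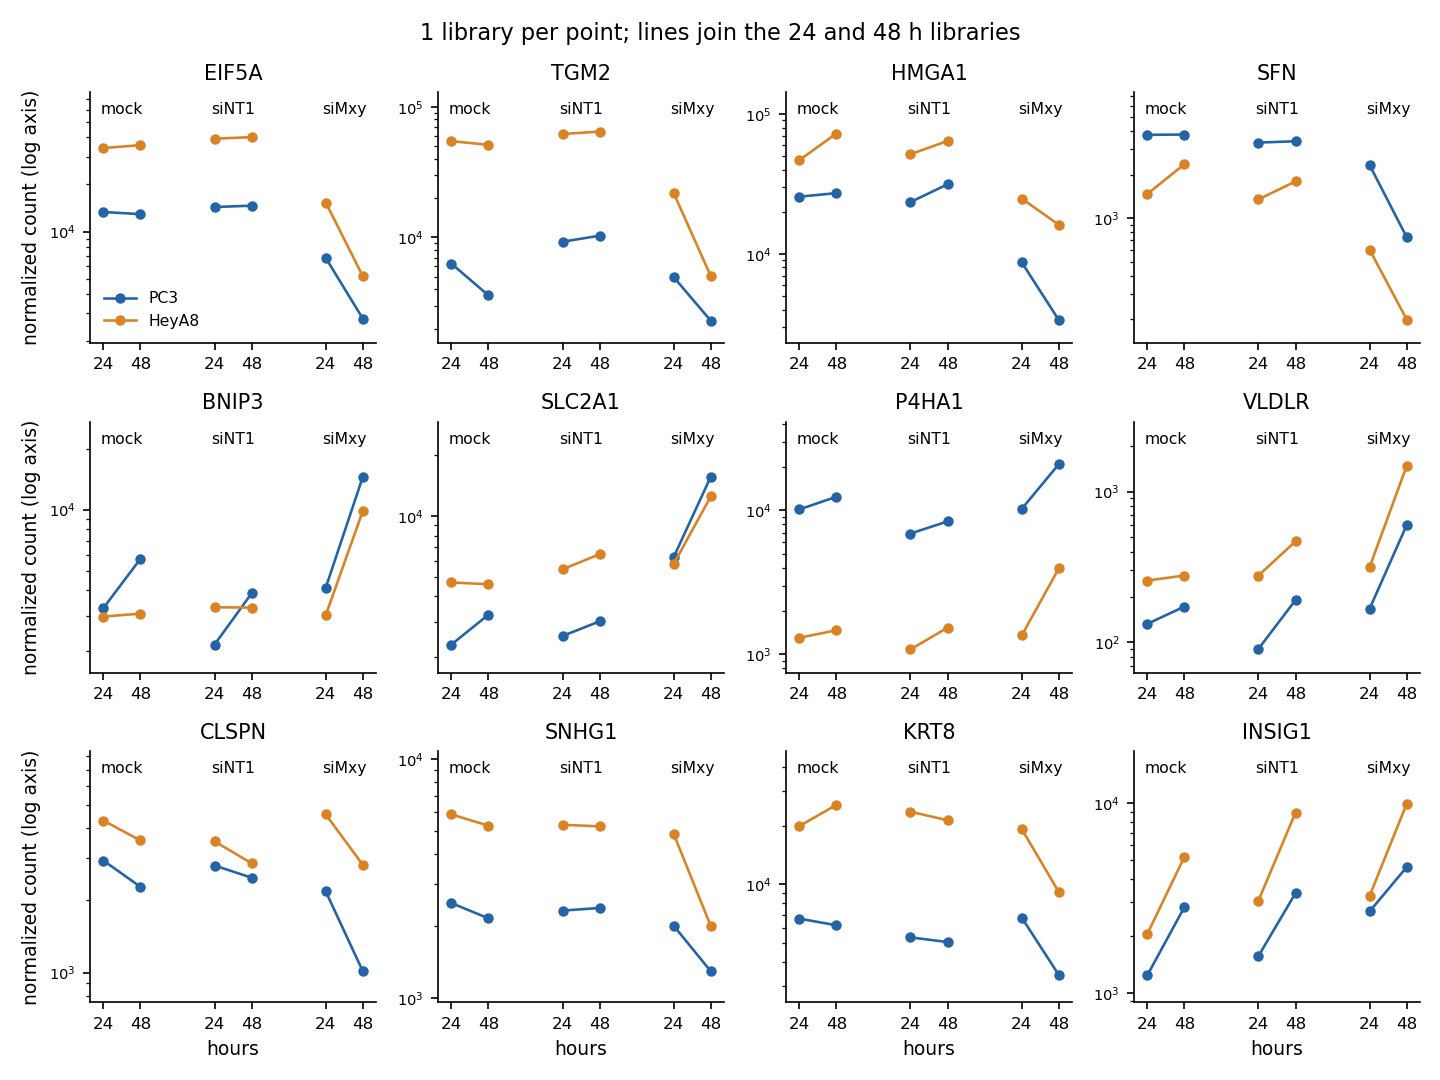
Normalized counts (log axis) of 12 genes in the 12 libraries fitted together, 24 and 48 h joined by a line, PC3 in blue and HeyA8 in orange, 1 library per point. EIF5A, TGM2, HMGA1 and SFN fell and BNIP3, SLC2A1, P4HA1 and VLDLR rose in siMxy (siGGGGGC) cells of both lines, while INSIG1 was higher at 48 h in every pair.

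Genes with GCCCCC in the 3′ UTR lay slightly lower at 48 h than genes without it. Of 13758 tested genes with an annotated 3′ UTR, 4487 held at least 1 match in their longest 3′ UTR. Their median log2 fold change was -0.085 against 0.029 without a match and -0.0038 in control cells. In siCAG cells the medians were -0.068 with a match and 0.022 without, and -0.18 with 5 or more matches, where siGGGGGC cells had -0.16. The medians in siGGGGGC and siCAG cells were thus close, and their difference was not tested. Of genes with a match 10.9% were called lower and 3.5% higher, and of genes without 5.79% and 4.63%. With 5 or more matches, 15.7% were called lower. The median with a match was -0.11 in PC3 and -0.023 in HeyA8. In 9 strata of 3′ UTR length and GC content, the median with a match was lower in all 9, by -0.023 to -0.18.

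Against the controls of the same time, the 4487 genes with a match stood at 0.057 at 24 h and -0.12 at 48 h in PC3, and at -0.030 and -0.043 in HeyA8. Genes without a match stood at 0.115 and 0.0405 in PC3, and at 0.048 and 0.0598 in HeyA8. The 254 genes with 5 or more matches stood at -0.17 at 24 h and -0.40 at 48 h in PC3, and at -0.35 and -0.46 in HeyA8. Of the 1025 genes with a 3′ UTR that were called lower, 488 (47.6%) held a match, so that 537 did not, and of the 586 called higher 157 (26.8%) did, beside 32.6% of all. For the 5 other orders of the same bases, between 8.84% and 10.6% of genes that held them were called lower, with medians from -0.043 to -0.090, beside 10.9% and -0.085 for GCCCCC. The part of base composition in the difference was not tested.

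**Figure D3:**
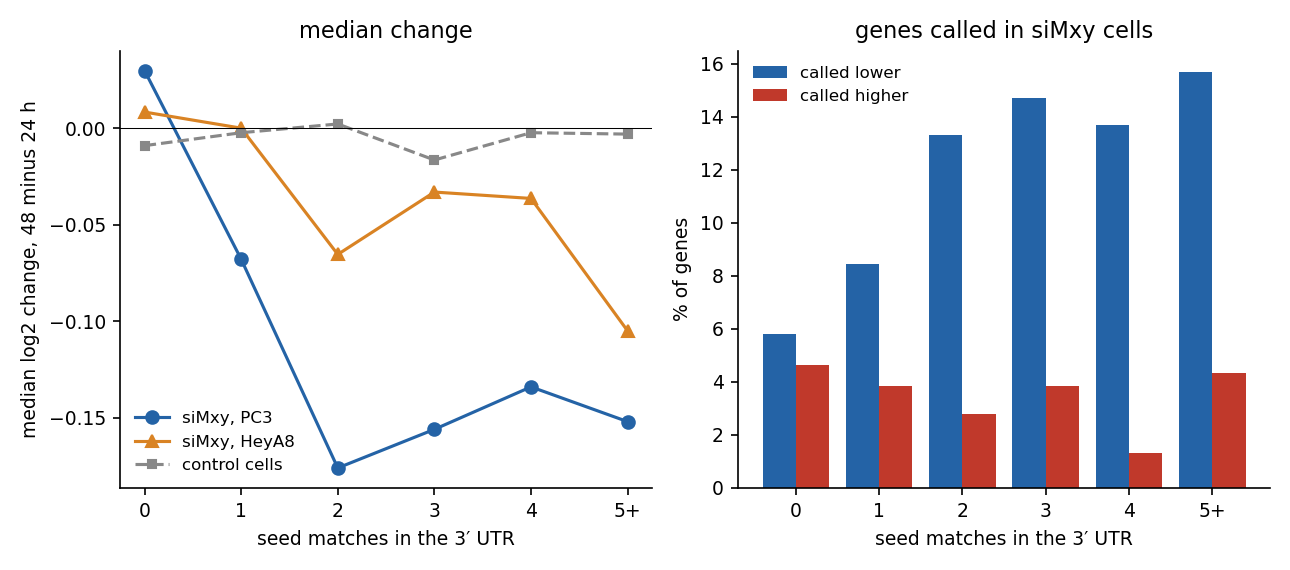
Left, median log2 change from 24 to 48 h of genes by number of seed matches in the longest 3′ UTR, in siMxy (siGGGGGC) cells of PC3 and HeyA8 and in control cells. Right, percent of these genes called lower (blue) and higher (red), with 5.79% called lower at 0 matches and 15.7% at 5 or more.

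Many glycolysis and hypoxia genes rose. Of 31 listed genes tested, 17 were called higher and 0 lower, with a median log2 fold change of 0.73 (0.96 in PC3 and 0.51 in HeyA8), beside -0.0054 for all genes. In control cells the medians were 0.42 for siNT1 and 0.26 for mock in PC3 and 0.10 and 0.048 in HeyA8. SLC2A1, the glucose transporter GLUT1, rose from 6265 to 15668 normalized counts in PC3 and from 5797 to 12507 in HeyA8 (log2 fold change 1.22 ± 0.14 (SE), edgeR BH-adjusted p = 0.00331). P4HA1, a collagen prolyl hydroxylase, rose from 10242 to 20949 normalized counts in PC3 and from 1355 to 3959 in HeyA8 (1.28 ± 0.14 (SE), edgeR BH-adjusted p = 0.00308). Both 48 h libraries of SLC2A1 lay above both 24 h libraries, whereas for P4HA1 the lines differed by more than the times.

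BNIP3L, a relative of BNIP3 in the removal of mitochondria, rose from 1941 to 5517 normalized counts in PC3 and from 2533 to 5914 in HeyA8 (1.36 ± 0.13 (SE), edgeR BH-adjusted p = 0.00293). No library at 48 h was as low as any at 24 h. With the PC3 pair left out, 11 of the list were called. Against controls, the list stood at 0.39 at 24 h and 0.97 at 48 h in PC3 and 0.060 and 0.49 in HeyA8. In the promoters of this list (250 bases before to 50 after the start, RefSeq), ACGTG, the core of hypoxia response elements and part of the E-box, was found on either strand in 13 of 27 (48.1%), beside 26.0% of 11860 tested genes with a promoter in the table. Of the 16 called higher with a promoter, 7 held it (43.8%). A match is a description of the letters, not of binding. Windows are shown for BNIP3 and P4HA1, whose values are given above, with the match, here as its reverse complement, in capitals (hg38).
BNIP3 (chr10:131982042-131982068, - strand): cgcacgcgccgCACGTgccacacgcac
P4HA1 (chr10:73096937-73096963, - strand): gtgatcgagctCACGTagcgagggctg

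Many DNA replication genes fell. E2F factors switch on the genes that a cell needs to copy its DNA, and 21 of 40 genes of this list were called lower and 0 higher, with a median of -0.55 (-0.68 in PC3, -0.41 in HeyA8) and -0.10 in control cells. CLSPN, an adaptor of the replication checkpoint, had 2179.8 normalized counts at 24 h and 1012 at 48 h in PC3, and 4569 and 2815 in HeyA8 (log2 fold change -0.90 ± 0.13 (SE), edgeR BH-adjusted p = 0.00571). Within each line the later library was lower, but HeyA8 at 48 h lay above PC3 at 24 h. POLA1, the catalytic subunit of DNA polymerase alpha, fell by 0.86, MCM10, a replication initiation factor, by 0.77, and CHAF1B, of the histone chaperone CAF-1, by 0.73 on the log2 scale. The list stood at 0.30 at 24 h and -0.49 at 48 h in PC3 and 0.12 and -0.12 in HeyA8 relative to controls. It was thus above the controls at 24 h and below them at 48 h. Without the PC3 pair 5 genes of the list were called lower, and from the 4 siGGGGGC libraries alone 2.

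TTTGGCGC or TTTCGCGC, forms of the E2F site, were found on either strand in 12 of 34 promoters of this list (35.3%) and in 1.95% of tested genes with a promoter. The window of POLA1 is shown, with the reverse complement of the first form in capitals (hg38).
POLA1 (chrX:24693770-24693799, + strand): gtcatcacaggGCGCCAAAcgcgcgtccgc
Of 35 mitosis genes 2 were called lower and 0 higher, beside 6.86% and 3.88% of all genes, so that they are named singly. They were CDC25B, a phosphatase that starts mitosis (-0.60 ± 0.13 (SE), edgeR BH-adjusted p = 0.0202), and BUB1B, of the spindle checkpoint (-0.47 ± 0.12 (SE), edgeR BH-adjusted p = 0.035). The median was -0.057 (0.0077 in PC3 and -0.12 in HeyA8). From the 4 siGGGGGC libraries alone 0 mitosis genes were called, and DESeq2 gave 6 lower and 0 higher.

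Many ribosome biogenesis genes fell too. Of 34 tested, 17 were called lower and 0 higher, with a median of -0.48 against -0.030 in control cells. RRS1, a ribosome assembly factor, fell from 2705 to 1404 normalized counts in PC3 and from 4189 to 2707 in HeyA8 (log2 fold change -0.79 ± 0.12 (SE), edgeR BH-adjusted p = 0.00694), and UTP20, of the small subunit processome, from 3346 to 2176 normalized counts in PC3 and from 6524 to 3247 in HeyA8 (-0.81 ± 0.13 (SE), edgeR BH-adjusted p = 0.00732). In each line the 48 h value was below the 24 h value for both genes. RRP9, a U3 snoRNP protein, fell by 0.77 and MYC, the transcription factor that drives many of these genes, by 0.70. The mRNAs of the ribosomal proteins themselves gave 0 higher and 0 lower of 46, with a median of -0.028 and 3 at an unadjusted p under 0.05 by edgeR, and 3 lower by DESeq2. Of the ribosome biogenesis genes, 6 were called lower without the HeyA8 pair, 11 without the PC3 pair and 0 from the 4 siGGGGGC libraries alone.

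Several host genes of snoRNAs and other short-lived noncoding RNAs fell. Of 18 tested, 9 were called lower and 0 higher, with medians of -0.40 in PC3 and -0.96 in HeyA8 and 0.038 in control cells. SNHG1, a snoRNA host gene, had 2010.3 normalized counts at 24 h and 1297 at 48 h in PC3, and 4868 and 2003 in HeyA8 (log2 fold change -0.96 ± 0.15 (SE), edgeR BH-adjusted p = 0.00746). NEAT1, the scaffold RNA of paraspeckles, fell from 3530 to 1730 normalized counts in PC3 and from 4970.2 to 1649.6 in HeyA8 (-1.31 ± 0.21 (SE), edgeR BH-adjusted p = 0.00704). In both genes the 48 h library of a line was its lowest, and for NEAT1 both 48 h libraries were below both 24 h libraries. SNHG8, a further host gene, fell by 1.35 and DANCR, which hosts snoRNAs as well, by 1.16 on the log2 scale, while control cells gave 0.059 and 0.46. Without the HeyA8 pair 4 of the list were called lower, and from the 4 siGGGGGC libraries alone 1.

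Of 18 replication-dependent histone genes, 4 were called higher and 0 lower, with medians of 1.20 in PC3 and 0.47 in HeyA8. In control cells the medians were 0.65 with siNT1 and 0.71 in mock for PC3, and -0.50 and -0.67 for HeyA8. Beside HIST1H2BJ and HIST1H2BC, HIST2H2BE rose from 406 to 975 normalized counts in PC3 and from 42.5 to 129 in HeyA8 (1.40 ± 0.35 (SE), edgeR BH-adjusted p = 0.0374) and the linker histone HIST1H1C from 812 to 1599 normalized counts in PC3 and from 78.5 to 151 in HeyA8 (0.96 ± 0.26 (SE), edgeR BH-adjusted p = 0.0468). Both were lower in HeyA8 than in PC3 at either time. Without the PC3 pair 0 of the list were called. Histone genes are near-identical copies, and how reads that fit several of them were counted is not given in the sources used here.

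**Figure D4:**
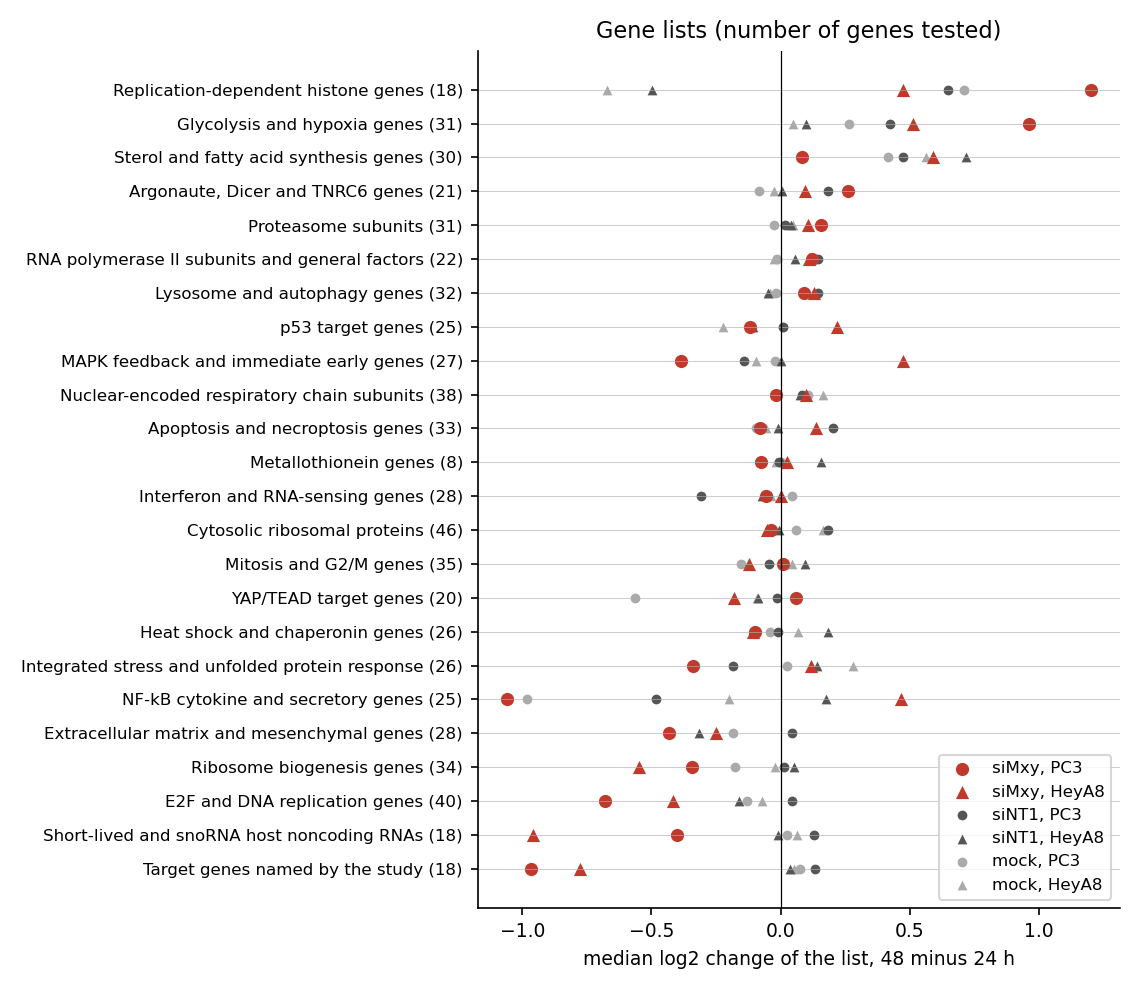
Median log2 change from 24 to 48 h of each gene list (genes tested in brackets) in siMxy (siGGGGGC, red), siNT1 (dark grey) and mock cells (light grey), with circles for PC3 and triangles for HeyA8. The target genes, at the bottom, lie at -0.97 in PC3 and -0.78 in HeyA8 with siMxy, and the sterol list lies above 0 in the control cells as well.

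KRT8, KRT18 and KRT7 fell in both lines. KRT8, of simple epithelia, had 6758 normalized counts at 24 h and 3433 at 48 h in PC3, and 19238 and 9145 in HeyA8 (log2 fold change -1.03 ± 0.13 (SE), edgeR BH-adjusted p = 0.00429). Its partner KRT18 fell from 7739.8 to 4628 normalized counts in PC3 and from 15152 to 8854 in HeyA8 (-0.76 ± 0.13 (SE), edgeR BH-adjusted p = 0.00896). The later value was the lower one in each line for both. KRT7 fell by 1.26 on the log2 scale, and in control cells it fell by 0.81, which passed the test there too (edgeR BH-adjusted p = 0.0433). KRT19 fell by 0.90, from PC3 alone, since HeyA8 had 6.37 and 6.5 normalized counts. These were the 4 of 7 epithelial markers called lower, with none higher. The sum of these markers was lower at 48 h in both lines.

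Among matrix and mesenchymal genes the test gave 6 lower and 0 higher of 28, with a median of -0.49 (-0.16 in control cells). The median was -0.43 in PC3 and -0.25 in HeyA8, and -0.23 with the PC3 pair left out. Control medians were 0.044 with siNT1 and -0.19 in mock for PC3, and -0.315 and -0.249 for HeyA8. From the 4 siGGGGGC libraries alone 2 of the list were called lower. SNAI2, a transcription factor of mesenchymal cells, fell from 1244 to 597 normalized counts in PC3 and from 316 to 55.3 in HeyA8 (-1.65 ± 0.29 (SE), edgeR BH-adjusted p = 0.00982), and TNC, tenascin-C, from 3336 to 2184 normalized counts in PC3 and from 8953 to 4023 in HeyA8 (-0.88 ± 0.20 (SE), edgeR BH-adjusted p = 0.0267), against 0.65 in control cells. The basement membrane collagen COL4A2 fell by 0.84 and fibrillin FBN1 by 0.52. THBS1, a matrix glycoprotein, fell by 1.03 here, and control cells gave -1.10 without passing the test. Of genes driven by the YAP and TEAD factors, CTGF, a matricellular protein, rose from 3153 to 9317 normalized counts in PC3 and from 24866 to 52887 in HeyA8 (1.32 ± 0.17 (SE), edgeR BH-adjusted p = 0.00432), while the receptor kinase AXL fell from 7666 to 3452 normalized counts in PC3 and from 22698 to 11768 in HeyA8 (-1.05 ± 0.16 (SE), edgeR BH-adjusted p = 0.00694) and FJX1 fell by 0.73. With THBS1, 3 of 20 in that list were lower and 1 higher, beside 6.86% and 3.88% of all genes.

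Some sterol synthesis genes rose at 48 h in siGGGGGC cells, and some in controls. Of 30 tested, 9 were called higher and 0 lower in siGGGGGC cells, and 5 higher in control cells, with medians of 0.34 and 0.56. The siGGGGGC median was 0.083 in PC3 and 0.59 in HeyA8, and 0.073 with the HeyA8 pair left out. Control medians were 0.475 with siNT1 and 0.415 in mock for PC3, and 0.72 and 0.56 for HeyA8. INSIG1, which holds back the sterol-sensing factors, rose from 2692 to 4613 normalized counts in PC3 and from 3257 to 9961 in HeyA8 (log2 fold change 1.20 ± 0.19 (SE), edgeR BH-adjusted p = 0.00753), and by 1.30 in control cells. SQLE, an epoxidase of cholesterol synthesis, rose from 6109 to 8499 normalized counts in PC3 and from 7465 to 15469 in HeyA8 (0.76 ± 0.14 (SE), edgeR BH-adjusted p = 0.012), and by 0.73 in control cells. In each line the 48 h value was the higher one for both genes. IDI1, an isomerase of that pathway, rose by 1.02, and the control value of 0.63 did not pass. By edgeR, 0 of the 30 passed the test of a difference from the controls. Without the HeyA8 pair 3 were called higher and 1 lower.

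In the lists that follow few members were called, in several at about the shares over all genes (3.88% higher and 6.86% lower), so that the genes are named singly and not as a change of their list. Of 25 p53 target genes 4 were higher and 0 lower: TP53INP1, of autophagy and cell death (1.47 ± 0.23 (SE), edgeR BH-adjusted p = 0.00694), the sestrin SESN1 (0.83), the DNA repair protein XPC (0.52) and the RNA-binding protein ZMAT3 (0.53). The list gave 2 higher and 0 lower without the PC3 pair and 1 higher and 5 lower without the HeyA8 pair. Of 21 genes of the small RNA machinery 5 were higher and 1 lower, against 1 higher and 1 lower without the PC3 pair and 2 higher and 0 lower without the HeyA8 pair. The decapping enzyme DCP2 (0.87 ± 0.14 (SE), edgeR BH-adjusted p = 0.00719), AGO3 (0.79) and AGO4 (0.65) rose, and DROSHA, which cuts miRNA precursors, fell (-0.75 ± 0.16 (SE), edgeR BH-adjusted p = 0.0188). Of 32 lysosome and autophagy genes 3 were higher and 3 lower. GABARAPL1, of autophagosomes, rose from 578 to 1374 normalized counts in PC3 and from 537 to 2072 in HeyA8 (1.60 ± 0.19 (SE), edgeR BH-adjusted p = 0.00406), as did MAP1LC3B (0.76) and WIPI1 (0.85), while the protease CTSL fell (-0.90).

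Of 26 heat shock genes 3 were lower, among them the heat shock factor HSF1 (-0.97 ± 0.12 (SE), edgeR BH-adjusted p = 0.00406), the small heat shock protein HSPB1 (-1.06) and mitochondrial HSPA9 (-0.40), and DNAJB4 was higher (0.92). The cell death list (2 higher and 2 lower of 33) and the NF-kB list (1 and 2 of 25) lay near those shares. The former gave 0 higher and 1 lower without the PC3 pair and 0 higher and 2 lower without the HeyA8 pair, and the latter 3 higher and 1 lower without the PC3 pair and 1 higher and 6 lower without the HeyA8 pair. Of the cell death genes, MLKL, which executes necroptosis (-1.34 ± 0.15 (SE), edgeR BH-adjusted p = 0.00309), and BOK (-0.46) fell, and CASP9, which starts the intrinsic pathway of apoptosis, rose (0.81). Of the NF-kB and cytokine genes, LIF (-0.86) and CXCL1 (-1.92) fell and IL1A (1.54) rose, the last in HeyA8, since PC3 had 2.81 and 3.83 normalized counts. MAPK feedback and immediate early genes gave 2 higher and 2 lower of 27, against 7 higher and 2 lower without the PC3 pair and 1 higher and 4 lower without the HeyA8 pair. The phosphatase DUSP6 (1.51 ± 0.25 (SE), edgeR BH-adjusted p = 0.0084) and ETV5 (0.52) rose, and DUSP1 (-0.57) and MYC fell.

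Few members of the remaining lists were called by edgeR. Beside POLR2E and POLR2K, 22 RNA polymerase II genes gave 1 higher, GTF2A1 (0.61). Of 31 proteasome subunits PSMB6 (0.54) and PSMB1 (0.45) rose, and of 38 respiratory chain subunits COX7A2 (0.50) and SDHC (0.49) rose and UQCRC2 (-0.62) fell. DESeq2 gave 10 higher and 0 lower of the proteasome list, 8 higher and 2 lower of the respiratory list and 4 higher and 3 lower of the RNA polymerase II list. From the 4 siGGGGGC libraries alone edgeR called 0 of the respiratory list, and 0 higher and 1 lower of the RNA polymerase II list. The respiratory median was -0.019 in PC3 and 0.098 in HeyA8. With either pair left out, edgeR called 0 proteasome subunits. VLDLR was called among 26 genes of the integrated stress and unfolded protein responses, where edgeR gave 1 higher and 0 lower, DESeq2 3 higher and 0 lower, and edgeR 3 higher and 0 lower without the PC3 pair and 1 higher and 5 lower without the HeyA8 pair. Of 28 interferon and RNA-sensing genes and 8 metallothionein genes, 0 were called by edgeR, with 4 and 0 at an unadjusted p under 0.05, and DESeq2 called 1 higher and 0. Mitochondrially encoded mRNAs were not analysed here. WT1 was the only ovarian marker called (-0.70 ± 0.19 (SE), edgeR BH-adjusted p = 0.0487).

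**Figure D5:**
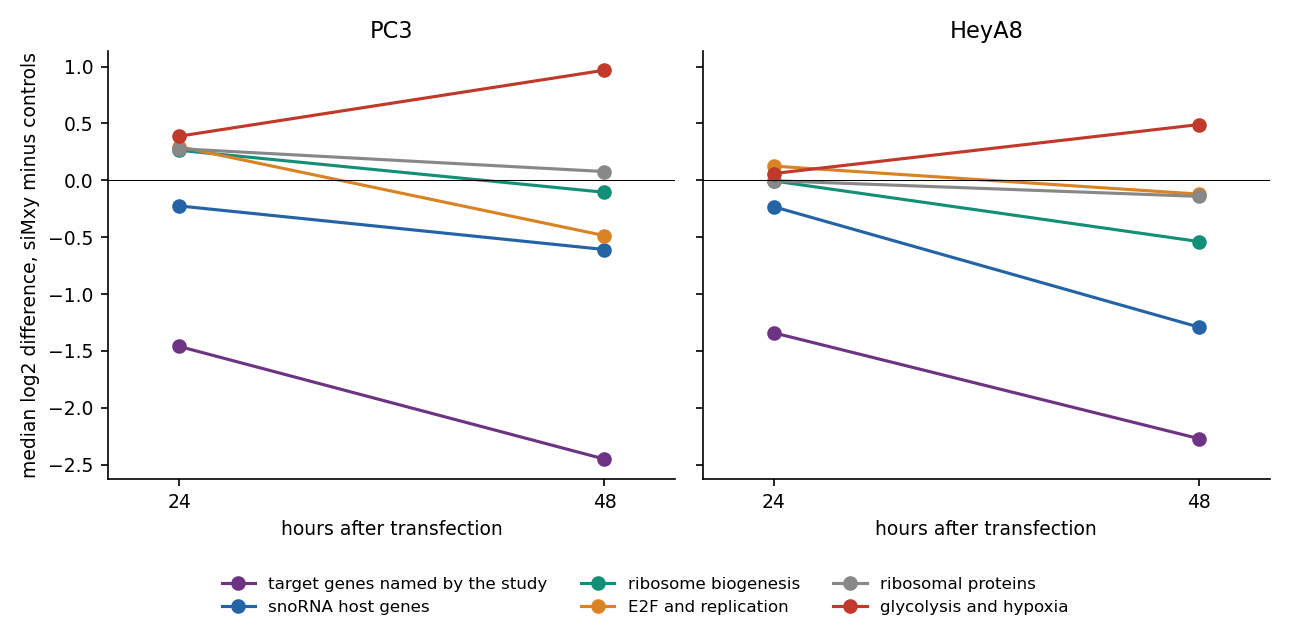
Median log2 difference between siMxy (siGGGGGC) cells and the mean of mock and siNT1 cells of the same line and time, for 6 gene lists at 24 and 48 h after transfection in PC3 (left) and HeyA8 (right). The target genes were already low at 24 h (-1.46 and -1.34), and the glycolysis and hypoxia list stands at 0.97 and 0.49 at 48 h.

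Whether siGGGGGC cells changed otherwise than control cells over the same hours was tested as the difference of the time effects. By edgeR, 64 of 15647 genes changed more upwards (0.409%) and 262 more downwards (1.67%) than the mean of mock and siNT1. ADGRG1, an adhesion receptor, had 897 normalized counts at 24 h and 365 at 48 h in PC3, and 114 and 44.4 in HeyA8, while control cells gave 0.27 (difference -1.58 ± 0.19 (SE), edgeR BH-adjusted p = 0.0174). TEAD2, a partner of YAP, fell from 1269.7 to 580.5 normalized counts in PC3 and from 450 to 164 in HeyA8 against 0.38 in control cells (difference -1.66 ± 0.20 (SE), edgeR BH-adjusted p = 0.0174). Each line's later library was the lower one. SFN led this side (difference -1.91 ± 0.22 (SE), edgeR BH-adjusted p = 0.0169), with LRP3, CPA4 and LINC01204, a noncoding RNA, at -1.61, -1.57 and -1.63.

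On the other side, ALDH2, the mitochondrial aldehyde dehydrogenase, rose from 64.6 to 252 normalized counts in PC3 and from 77.5 to 194 in HeyA8 (difference 1.94 ± 0.38 (SE), edgeR BH-adjusted p = 0.0369). APOLD1, an endothelial early response gene, rose from 200.4 to 512 normalized counts in PC3 and from 269 to 728 in HeyA8 (difference 1.49 ± 0.32 (SE), edgeR BH-adjusted p = 0.0492). For both genes each 48 h value was above both 24 h values. TLCD2, a membrane protein, gave a difference of 1.99, and SYT11, MED12L and NME1-NME2 gave 2.50, 2.08 and 1.98. Of the lists, 10 of 18 target genes named by the study and 5 of 31 glycolysis and hypoxia genes (BNIP3, BNIP3L, SLC2A1, P4HA1 and PFKP) passed this test. So did 3 of 18 snoRNA hosts and short-lived noncoding RNAs, 3 of 26 heat shock genes and 2 of 7 epithelial markers, all downwards. Of the lists with many members lower at 48 h, 2 of 40 E2F and replication genes and 1 of 34 ribosome biogenesis genes passed it, so that for most of their members a difference from control cells was not shown. Of the genes more downwards that had a 3′ UTR, 142 of 252 (56.3%) held GCCCCC, beside 18 of 64 (28.1%) of those more upwards and 32.6% of all. Of genes with GCCCCC 3.16% were more downwards, and of genes with the 5 other orders of its bases 2.23% to 2.74%. The count fell to 11 higher and 74 lower with siNT1 as the only control, and to 0 and 10 with mock.

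Differences between the lines in the change over time were tested with a line term for siGGGGGC cells, on 2 residual degrees of freedom that come from control cells. Each line had 1 siGGGGGC pair, so the test assumes that these pairs vary like the control pairs and has no replicate of a line's own change. Of 15647 genes, 2 passed, both with a more upward change in HeyA8 (0.0128%), and 0 with a more upward change in PC3 (0%), while 1724 had an unadjusted p under 0.05. ICAM1, an adhesion molecule of inflamed cells, had 2156 normalized counts at 24 h and 2042 at 48 h in PC3, and 80.7 and 573 in HeyA8 (difference 2.91 ± 0.31 (SE), edgeR BH-adjusted p = 0.0365). The HeyA8 library at 48 h stood above that at 24 h and below both PC3 libraries. DRAP1, a repressor of transcription by RNA polymerase II, had 7054 normalized counts at 24 h and 2873 at 48 h in PC3, and 3628 and 5328 in HeyA8 (difference 1.85 ± 0.21 (SE), edgeR BH-adjusted p = 0.0365). The 48 h value was the lower one in PC3 and the higher one in HeyA8. With RLE size factors, with all 16 libraries and among genes with a mean over 100 normalized counts, 0 genes passed, and with DESeq2 165.

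The genes next in rank did not pass the threshold. GBX2, a homeobox factor, had 1510.3 normalized counts at 24 h and 307 at 48 h in PC3, and 112 and 217 in HeyA8 (difference 3.24 ± 0.40 (SE), edgeR BH-adjusted p = 0.0568), and TNFRSF12A, the TWEAK receptor, had 4952 normalized counts at 24 h and 2506 at 48 h in PC3, and 5883 and 8894 in HeyA8 (difference 1.58 ± 0.21 (SE), edgeR BH-adjusted p = 0.0664). On the other side were STC1, stanniocalcin (difference -2.73 ± 0.40 (SE), edgeR BH-adjusted p = 0.0664), tissue factor F3 (difference -1.90 ± 0.27 (SE), edgeR BH-adjusted p = 0.0664), SNHG3 (difference -1.65 ± 0.25 (SE), edgeR BH-adjusted p = 0.0664) and the elongation factor ELL2 (difference -1.50 ± 0.23 (SE), edgeR BH-adjusted p = 0.0664). STC1 gave 2.10 in PC3 and -0.63 in HeyA8 on the log2 scale, and SNHG3 -0.43 and -2.08.

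siCAG cells were compared in a fit to all 16 libraries. The change from 24 to 48 h differed between siGGGGGC and siCAG in 0 of 15887 genes by edgeR (0%), with 1107 at an unadjusted p under 0.05 and 88 called by DESeq2. siCAG cells had 0 genes called for their own change, with 1466 at an unadjusted p under 0.05. The biological coefficient of variation was 24.4% with siCAG in the fit and 13.6% without. With 1 line left out of both siRNAs, 778 genes passed in PC3 and 3869 in HeyA8, tests in which the lone pairs are assumed to vary like the control cells. Side by side, the median log2 change was -0.057 with siGGGGGC and -2.60 with siCAG for mitosis genes, -0.55 and -1.16 for replication genes, 0.73 and -0.13 for glycolysis and hypoxia genes, and -0.96 and -0.33 for the target genes named by the study. The differences between these medians were not tested.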

How the data were processed

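RNA-seq counts per gene were used from 12 libraries of mock, siNT1 and siGGGGGC cells, and from 16 where siCAG was compared, with 27937092 to 31790209 counts per library. Genes at few counts, such as CD14, carry a large counting error. The authors deposited whole-number counts per gene, made by trimming reads, aligning them to hg38 and counting reads in exons with HTSeq. The submitters' processing notes name STAR, and the study's methods name it as 1 of 2 aligners. Whether strand was used in counting is not given in the sources used here.

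Groups came from the sample labels. edgeR 4.0.16 (R 4.3.3, TMM, filterByExpr, quasi-likelihood F test) was fitted with 1 level for each line and treatment and 1 time effect for each treatment, on 3 residual degrees of freedom. These come 1 each from mock, siNT1 and siGGGGGC cells, as the difference between the lines in the change over time. The contrasts were the siGGGGGC time effect, its difference from the mean of mock and siNT1, a line term and, in 16 libraries, the difference from siCAG. P-values were BH adjusted over all genes tested, at a threshold of 0.05. Cell line paired the libraries. PC3 deviations from the siGGGGGC group means at 24 and 48 h correlated with r = 0.94 over 9425 genes. This describes a difference between the lines that was present at both times, not how alike their changes over time were. Named genes were the 12 rises and 12 falls with the largest smaller change of the 2 lines, among called genes of the same direction in both and a mean over 100 normalized counts, the study's targets, up to 4 genes of lowest p per list, 6 per direction beyond controls and 4 per side of the line term. A few further list members were named after their values were seen. Members and lists were chosen with earlier results of these data known. 3′ UTRs came from GENCODE 44 (hg38), to which 23161 of 26485 symbols matched directly and 1415 through older symbols. miRNA and promoter sequences came from RefSeq tables (GRCh38.p14). In simulated data, changes were given only to genes with a mean over 100 counts and were equal in both lines. Of 100 genes changed 2-fold and 100 changed 4-fold, 82% and 100% were recovered as time effects, with 20 false calls among 15432 genes. As differences from controls, 61% and 100% were recovered, with 25 false calls. In both tests the share of false calls was above the threshold of 0.05. Recovery at lower counts, or where the lines change by different amounts, was not measured. Other normalization, filters, tools, sample sets, the block and leaving out a line were tried as alternatives, and DESeq2 was version 1.42.0. Some genes are not reported here. Python 3.11.15 was used for sequences and plots.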

Additional observations from a re-analysis of the deposited data

Results flagged for a closer look

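For 2 genes the change from 24 to 48 h passed the test of a difference between the lines, in which 1 siGGGGGC pair per line is assumed to vary like the control pairs. Fewer genes passed with RLE size factors, with all 16 libraries or at a mean over 100 normalized counts, and more with DESeq2. With no replicate of a line's own change, a line difference is not established. The change was larger in HeyA8 than in PC3 by 2.91 on the log2 scale for ICAM1 and by 1.85 for DRAP1 (edgeR, BH-adjusted p = 0.0365 for both). ICAM1 gave -0.079 in PC3 and 2.80 in HeyA8, and DRAP1 gave -1.30 and 0.55.

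For 4 gene lists the median change had opposite signs in the lines and was over 0.1 in size in both, and this difference was not tested. Other lists had medians of opposite sign with 1 or both nearer to 0. NF-kB and cytokine genes had medians of -1.06 in PC3 and 0.47 in HeyA8, a difference of 1.53. MAPK feedback and immediate early genes had -0.39 and 0.47, a difference of 0.86. Genes of the integrated stress and unfolded protein responses had -0.34 and 0.12, a difference of 0.46, and p53 target genes -0.12 and 0.22, a difference of 0.34. Control cells had medians, for PC3 and HeyA8 in this order, of -0.48 and 0.18 with siNT1 and -0.98 and -0.20 in mock for the NF-kB list, -0.14 and 0 with siNT1 and -0.020 and -0.095 in mock for the MAPK list, -0.18 and 0.14 with siNT1 and 0.026 and 0.28 in mock for the stress list, and 0.010 and -0.11 with siNT1 and 0.0092 and -0.22 in mock for the p53 list. The median change of the NF-kB and stress lists was thus higher in HeyA8 than in PC3 in control cells as well. Groups of 2 libraries allow no test for outlying samples.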

How the results depend on the processing

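For the siGGGGGC time effect, 1680 genes in all, the count was 2694 with DESeq2 (1249 higher, 1445 lower, so 46.4% of calls higher against 36.1%), 488 at a fold of at least 2 and 288 from the 4 siGGGGGC libraries alone. It was 0 without the replicate block, that is without pairing by cell line (413 genes at an unadjusted p under 0.05), and 0 with all 16 libraries. Without 1 line it was 952 to 1297 (33.6% of calls higher without PC3 and 25.1% without HeyA8), where lone pairs are assumed to vary like the control cells. For the difference from controls, 326 genes, it was 1368 with DESeq2, 750 without a filter on low counts, 85 with siNT1 alone and 10 with mock alone as control, 0 without the replicate block and 0 with all 16 libraries. For control cells, 17 genes, it was 246 with DESeq2, 90 without a filter, 2 at a mean over 100 normalized counts, 0 without the replicate block, 0 with all 16 libraries and 0 to 11 without 1 line. For the line difference, 2 genes, it was 165 with DESeq2 and 0 with RLE size factors, with all 16 libraries and at a mean over 100. For siCAG, 0 genes, it was 88 with DESeq2, 778 without HeyA8 and 3869 without PC3. The median of genes with GCCCCC was -0.023 in HeyA8 alone. The other alternatives kept these counts within 1.5 times. Of 117 genes named for the time effect, not all of which were called, 113 lost their call without the block and 113 with all 16 libraries. The call was lost by 53 with the 4 libraries alone, and by 4 with each of DESeq2, RLE size factors and a mean over 100. Others lost it when PC3 or HeyA8 was left out, where a lone pair has no replicate. Of 12 genes named for the difference from controls, 10 lost their call with mock alone as control and 7 with siNT1 alone. All 12 lost it without the block and with all 16 libraries, and 2 with DESeq2. BTBD2 ranged from -0.20 to 0.45 and KRT19 from -0.97 to 0.044 when 1 line was left out. List medians under these alternatives were computed after seeing the data. The causes of these shifts were not tested. With 1 library per line and time, the error of each line's own change is unknown.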
